A study of Mus musculus with 12 samples.

Results

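In mouse cumulus cells, 147 genes were listed in none of 3 libraries from cells given FSH and FBS and in each of 3 untreated libraries. They were chosen by that listing alone: a gene had to have no first-exon or last-exon event, on the strand where most of its signal lay, in any FSH and FBS library and at least 1 such event in every untreated library. They made up 1.1% of the 13318 genes listed in at least 1 library and 1.47% of the 10031 genes listed in all 3 untreated libraries. The opposite pattern, listing in all 3 FSH and FBS libraries and in no untreated one, was held by 140 genes. Because the listing in both groups chose the genes, their difference between the groups is a description and carries no test. The deposited tables hold no event at 0, so a gene that is missing from a library is called not listed here, and no fold change against it is given.

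Total RNA came from cumulus cells of Kunming mice, a strain for which the labels give no altered gene. The first group had received FSH, a gonadotropin, together with FBS, fetal bovine serum, over 18 hours. The second group is labelled as untreated, with no time in culture given. FSH, FBS and time in culture therefore cannot be told apart. Libraries are numbered 1 to 3 within each group, with no word on whether they stem from different cultures or animals. The p-values thus cover only the spread among these libraries, which may be technical.

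Cumulus cells are the granulosa cells that surround the oocyte in an antral follicle and are joined to it by cell contacts. FSH acts on them through a receptor that raises cyclic AMP, and before ovulation they lay down a hyaluronan-rich matrix, a process called cumulus expansion. Granulosa cells also make collagens, proteoglycans, growth factor antagonists and ion channels, and these change as the follicle matures.

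Facts of the libraries bear on every listing. The tables held 84986, 85853 and 63940 events in FSH and FBS libraries 1, 2 and 3, against 85174, 76969 and 68742 in untreated libraries 1, 2 and 3. They listed 10475 to 11398 genes per FSH and FBS library and 10786 to 11552 per untreated library. Over the 9237 genes listed in all 6 libraries, libraries 1 and 2 differed by a median of 0.13 (log2, without sign) in the FSH and FBS group and 0.15 in the untreated group, while library 3 differed from either by 0.55 to 0.56 and by 0.46. Libraries 1 and 2 of a group were therefore averaged and counted as 1 sample wherever a mean or test is given, so n is 2 per group. FSH and FBS library 3 lacked 466 genes that the other 5 libraries listed, and FSH and FBS libraries 1 and 2 lacked 23 and 25. Untreated libraries 1, 2 and 3 lacked 43, 145 and 297 such genes. Of these, 84 in FSH and FBS library 3, 81 in untreated library 2 and 30 in untreated library 3 had a mean of at least 5 FPKM. Of 16 granulosa cell markers listed anywhere, the FSH and FBS libraries listed 15, 15 and 13 and the untreated libraries 14, 15 and 14. Their summed level was 572.9 to 730.5 FPKM with FSH and FBS and 573.2 to 678.8 FPKM untreated. The aromatase gene Cyp19a1 was not listed in any untreated library, and the estrogen receptor gene Esr2 was listed only in untreated library 2. All values are FPKM, a read level scaled to transcript length and library size; the files used here hold no counts, so read depth is unknown.

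Most of the 147 genes were of low level. A gene's level is its mean over the 2 untreated samples, and the median level was 0.98 FPKM, against 8.18 FPKM for all 10031 genes listed in the 3 untreated libraries. Levels ran between 0.058 FPKM for Hba-a2, an alpha-globin gene, and 21.4 FPKM for Pamr1. Under 1 FPKM lay 76 genes, or 51.7%, against 5.81% of all 10031. A level of 5 FPKM or more was reached by 11 genes, and 43 genes had at least 1 FPKM in every untreated library.

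The share of genes that were listed in no FSH and FBS library was smaller at higher level. Among genes under 0.5 FPKM it was 24 of 143, or 16.8%, and between 0.5 and 1 FPKM it was 52 of 440, or 11.8%. Between 1 and 2 FPKM it was 4.22%, between 2 and 5 FPKM 1.23%, and between 5 and 10 FPKM 8 of 2236 genes, or 0.358%. Low genes were also dropped from single libraries: of the genes under 0.5 FPKM, 52.4% were listed in all 3 FSH and FBS libraries, against 99.2% of those at 20 FPKM or more. A low gene's place among the 147 thus goes with how often low genes are listed at all, and how much of its place that accounts for was not tested. At 5 FPKM or more the share was 0.358% or lower in each band. These shares count the 147 genes themselves, so they are no separate measure of how often genes go missing.

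**Figure D1:**
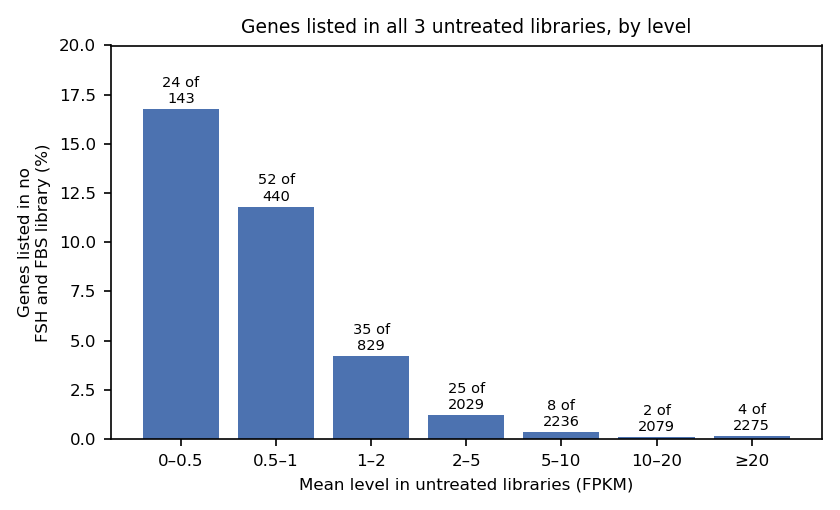
Share of genes listed in no FSH and FBS library (vertical axis, %) among genes listed in all 3 untreated libraries, by mean untreated level (horizontal axis, FPKM). Bars carry the numbers of genes, including the 3 genes that are not described here in the bar for 20 FPKM and above; the share is 16.8% under 0.5 FPKM and 0.358% between 5 and 10 FPKM.

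Genes next to the rule show what it turned on. Just inside lay Hba-a2, with 0.097, 0.079 and 0.028 FPKM in untreated libraries 1, 2 and 3, and Fgf5, a growth factor gene, with 0.032, 0.070 and 0.092 FPKM. Just outside lay 130 genes that were listed in all untreated libraries and in 1 FSH and FBS library, of which 38, 41 and 51 were listed in FSH and FBS library 1, 2 and 3. Col11a1, which encodes a fibrillar collagen chain, had 0.018 FPKM in FSH and FBS library 2 alone, against 32.5, 32.0 and 12.2 FPKM in the untreated libraries. A single event of very low level thus kept out a gene higher than Pamr1. Il34, which encodes a cytokine ligand of the Csf1 receptor, had 1.09 FPKM in FSH and FBS library 3 alone, against 9.60, 9.23 and 6.30 FPKM in the untreated libraries. A further 231 genes were listed in 2 untreated libraries and in no FSH and FBS library. Events of other kinds, such as alternative exons and retained introns, were not used by the rule. With FSH and FBS, 143 of the 147 genes had no event of any kind. Fastkd1, which encodes a mitochondrial RNA-binding protein, had 13 such events of 0.375 to 5.24 FPKM spread over all 3 FSH and FBS libraries. Its own values in untreated libraries 1, 2 and 3 were 4.52, 4.84 and 0.965 FPKM, so for Fastkd1 the listing marks missing terminal exons and not a missing transcript. Accsl, Fbxw16 and Miox each had 1 or 2 such events, in FSH and FBS library 3 alone.

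The highest genes by role were secreted proteins, matrix proteins, ion transporters and growth regulators. Pamr1, which encodes a secreted protein with a peptidase-like domain, had 25.2, 28.0 and 16.2 FPKM in untreated libraries 1, 2 and 3. Rarres2, which encodes the chemoattractant and adipokine chemerin, had 13.1, 13.5 and 17.7 FPKM. Kcnk2, which encodes a stretch-sensitive background potassium channel, had 10.2, 16.0 and 11.2 FPKM. These 3 genes were at or above 10 FPKM in each untreated library and were listed in no FSH and FBS library. Together the 10 highest genes held 39.8%, 40.2% and 33.3% of the summed level of all 147 in untreated libraries 1, 2 and 3, which was 307.2, 319.7 and 243.1 FPKM.

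**Figure D2:**
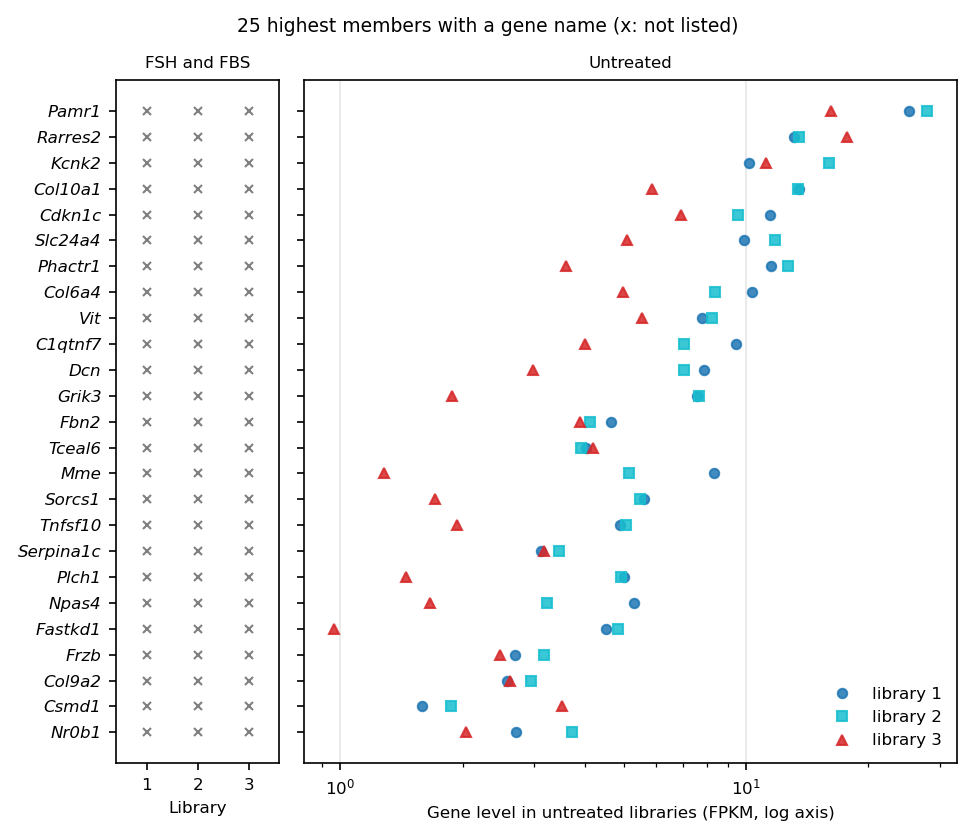
Level of the 25 highest genes with a gene name in the 3 FSH and FBS libraries (left, crosses mark genes that are not listed) and in the 3 untreated libraries (right, FPKM, log axis, 1 symbol per library). Pamr1 is highest at 16.2 to 28.0 FPKM, and library 3 (triangles) lies below libraries 1 and 2 for most of the genes shown.

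Start-site sequences of 5 of these genes are printed to show the range of base composition described next. They cover 250 bases before to 50 bases after the annotated start, come from RefSeq with the build GRCm38.p6, and are given 5′ to 3′ along the gene's strand, with each CG dinucleotide in capitals.
Kcnk2, chr1:189343304-189343603, minus strand: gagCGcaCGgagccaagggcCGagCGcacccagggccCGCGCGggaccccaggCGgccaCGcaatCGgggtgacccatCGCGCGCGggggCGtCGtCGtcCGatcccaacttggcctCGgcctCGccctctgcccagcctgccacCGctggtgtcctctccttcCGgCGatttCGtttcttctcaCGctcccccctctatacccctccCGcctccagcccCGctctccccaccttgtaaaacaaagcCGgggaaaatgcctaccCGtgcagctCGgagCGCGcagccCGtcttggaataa
Col10a1, chr10:34389731-34390030, plus strand: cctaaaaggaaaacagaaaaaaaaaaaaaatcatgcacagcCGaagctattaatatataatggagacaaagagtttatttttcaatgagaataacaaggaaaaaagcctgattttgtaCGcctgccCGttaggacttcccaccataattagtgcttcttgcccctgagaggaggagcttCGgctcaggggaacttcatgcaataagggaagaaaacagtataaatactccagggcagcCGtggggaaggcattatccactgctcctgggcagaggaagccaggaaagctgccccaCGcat
Phactr1, chr13:42865997-42866296, plus strand: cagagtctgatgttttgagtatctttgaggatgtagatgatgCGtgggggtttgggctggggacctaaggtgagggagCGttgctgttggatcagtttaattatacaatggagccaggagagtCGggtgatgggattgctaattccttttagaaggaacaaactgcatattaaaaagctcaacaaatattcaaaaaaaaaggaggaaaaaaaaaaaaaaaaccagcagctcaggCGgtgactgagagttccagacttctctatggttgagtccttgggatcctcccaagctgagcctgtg
C1qtnf7, chr5:43515319-43515618, plus strand: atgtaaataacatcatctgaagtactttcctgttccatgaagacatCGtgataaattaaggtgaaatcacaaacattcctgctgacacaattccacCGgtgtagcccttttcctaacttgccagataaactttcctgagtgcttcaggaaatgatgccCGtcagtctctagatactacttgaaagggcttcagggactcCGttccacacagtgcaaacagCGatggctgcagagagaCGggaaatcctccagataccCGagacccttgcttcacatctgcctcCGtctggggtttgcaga
Mme, chr3:63294961-63295260, plus strand: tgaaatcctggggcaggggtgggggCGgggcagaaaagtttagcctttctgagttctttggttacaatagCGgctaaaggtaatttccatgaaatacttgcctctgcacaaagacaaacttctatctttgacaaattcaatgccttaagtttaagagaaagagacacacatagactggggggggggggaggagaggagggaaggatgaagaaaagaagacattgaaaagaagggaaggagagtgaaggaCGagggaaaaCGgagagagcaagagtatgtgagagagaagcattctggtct
The Kcnk2 start held 33 CG dinucleotides, and those of Col10a1, Phactr1, C1qtnf7 and Mme held 6, 4, 8 and 4. The annotated starts of Kcnk2, Col10a1 and Phactr1 lay 0 to 2 bases from a first exon in the untreated libraries, that of Mme 68 bases and that of C1qtnf7 303 bases.

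Sequences of this kind were matched for 102 of the 147 genes. Their median number of CG dinucleotides was 7, against 22 for 7870 genes listed in all 3 untreated libraries and 7 for all 27025 genes in the sequence table. A GC box, searched as GGGCGG on both strands, was found in 38.2% of the 102 genes, against 67.3% of the listed genes and 35.9% of all genes. In these medians and shares the 102 starts lay near those of genes at large and below those of other expressed genes; no test was made. By level, the median number of CG dinucleotides was 8 for 76 of the 147 genes under 2 FPKM and 6.5 for 26 at or above it, against 19 for 722 genes under 2 FPKM that were listed in all 6 libraries. The TATA box, searched as TATAAA on both strands, was in 12.7% of the 102 genes, 6.42% of listed genes and 14.2% of all genes. In the Col10a1 sequence it lies 32 to 27 bases before the start. The RUNX motif TGTGGT was in 20.6%, 11.6% and 16.9% of the same 3 sets, and the AP-1 motif TGANTCA in 8.82%, 4.36% and 7.93%. The cyclic AMP response element TGACGTCA was in 1 of the 102 genes, or 0.98%, against 3.41% of listed genes and 1.88% of all genes. A match is a description of letters in this window and not a site.

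Among the 11 secreted proteins, growth factor antagonists and hormones stood beside chemerin. C1qtnf7, which encodes a secreted relative of adiponectin, had 9.42, 7.02 and 4.01 FPKM in untreated libraries 1, 2 and 3. Frzb, which encodes a secreted Wnt antagonist, had 2.70, 3.17 and 2.47 FPKM. Stc1, which encodes the hormone stanniocalcin, had 2.74, 2.08 and 1.87 FPKM. All 3 were lowest in library 3. Ptgds, which encodes a prostaglandin D synthase, had 0.954, 1.03 and 3.56 FPKM and was thus highest in library 3. Serpina1c, which encodes a protease inhibitor of the alpha-1-antitrypsin family, had 3.12, 3.46 and 3.17 FPKM; it belongs to a family of near-identical copies, so its share of their reads is uncertain. The fibroblast growth factor genes Fgf17 and Fgf5 were both under 1 FPKM in level. On the list of Wnt pathway genes, 15 other genes were tested and 3 were called higher with FSH and FBS and 0 lower, by limma with Benjamini-Hochberg adjustment at 0.05. With the block described next the calls were 4 higher and 2 lower.

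For that test and those below, 9022 genes were fitted, each present in all 6 tables and averaging 1 FPKM or more. With FSH and FBS 152 of them, or 1.68%, were called higher and 62, or 0.687%, lower. An unadjusted limma p under 0.05 was reached by 1485 of the 9022 genes. Counts at that limit in the lists below are to be read beside it. Same-numbered samples deviated together, and with the sample number as a block 1040, or 11.5%, were called higher and 407, or 4.51%, lower. The labels do not say that the numbers are pairs. With n = 2 per group the block fit has 1 residual degree of freedom per gene. Its p-values therefore lean on the spread pooled over genes. None of the 147 genes could be in the test. The median of all tested genes was 0.24 (log2, FSH and FBS over untreated), and it was 0.0050 after scaling by the median of ratios, so a value near 0.24 is no change relative to the other genes.

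Collagens and proteoglycans were among the highest of the 147 genes. Col10a1, which encodes collagen X, a network-forming collagen best known from growth plate cartilage, had 13.5, 13.4 and 5.87 FPKM in untreated libraries 1, 2 and 3. Col6a4, which encodes a chain of the microfibril-forming collagen VI, had 10.4, 8.40 and 4.97 FPKM. Vit, which encodes the matrix protein vitrin, had 7.78, 8.25 and 5.52 FPKM. All 3 were lowest in library 3. Dcn, which encodes decorin, a small proteoglycan that binds collagen and TGF-beta, had 7.86, 7.01 and 2.99 FPKM. Fbn2, which encodes the microfibril protein fibrillin-2, had 4.65, 4.11 and 3.88 FPKM. Col9a2, which encodes a chain of the fibril-associated collagen IX, had 2.58, 2.96 and 2.62 FPKM, and its partner chain gene Col9a3 had 0.368, 0.898 and 0.264 FPKM. Itih2 encodes a heavy chain that can be joined to hyaluronan in an expanding cumulus matrix. It had 3.01, 1.85 and 1.72 FPKM and was not listed with FSH and FBS. Prelp, which encodes a leucine-rich matrix proteoglycan, had 1.87, 2.18 and 0.528 FPKM. Mme, which encodes the cell-surface peptidase neprilysin, had 8.33, 5.13 and 1.28 FPKM, and Mmp9, which encodes a secreted gelatinase, had 0.837, 1.48 and 0.109 FPKM.

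The other genes of the matrix moved in both directions. A list of collagen and matrix genes had 65 genes listed in at least 1 library, 6 of them among the 147 and 29 tested. Of those 29, 3 were called higher and 3 lower with FSH and FBS, or 7 and 5 with the block, and their median was 0.27 (log2), beside 0.24 for all genes. Smoc2 encodes a calcium-binding matrix protein that interacts with growth factors; its level was 3.26 ± 1.69 FPKM with FSH and FBS and 48.7 ± 2.56 FPKM in untreated cells (SD, n = 2 each). Its log2 change was -3.60 ± 0.40 (SE), with a limma adjusted p of 0.0062. Smoc1, its close relative, fell to 1.60 ± 0.34 FPKM with FSH and FBS, against 22.1 ± 5.01 FPKM in untreated cells (limma adjusted p = 0.0086). Col18a1, which encodes a basement membrane collagen, had 15.04 ± 1.67 FPKM with FSH and FBS and 0.626 ± 0.0090 FPKM in untreated cells (limma adjusted p = 0.0062). Col18a1 could not be fitted with first exons alone or with last exons alone. Its values may therefore mix both kinds of event between libraries. Col6a3, which encodes another chain of collagen VI, had 9.29 ± 0.26 FPKM with FSH and FBS and 0.179 ± 0.21 FPKM in untreated cells (limma adjusted p = 0.0086). Within collagen VI, then, Col6a3 was higher with FSH and FBS while Col6a4 was listed in untreated libraries alone. The third gene called higher was Tnc and the third called lower was Col27a1.

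**Figure D3:**
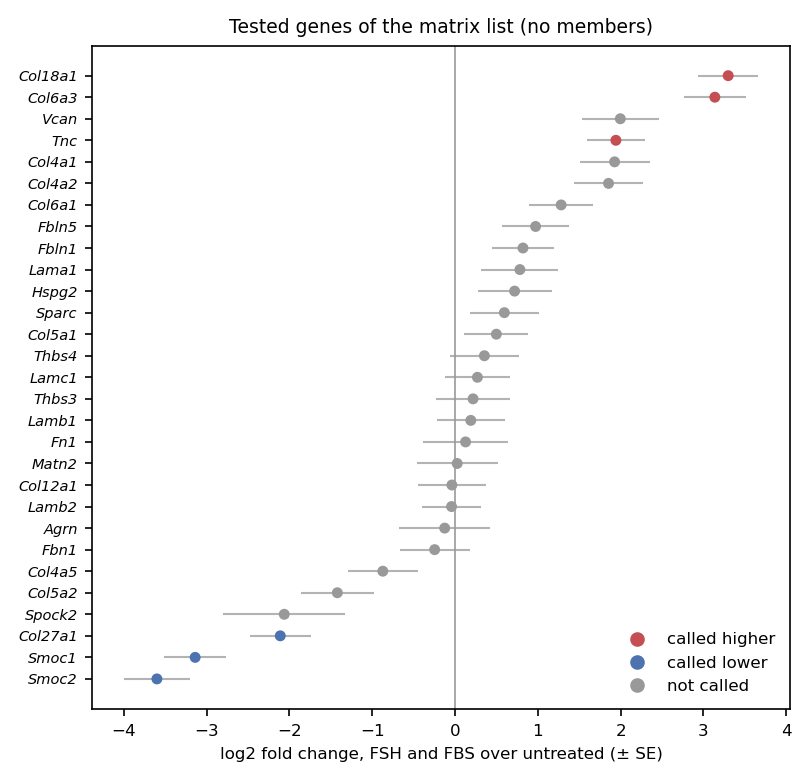
Log2 fold change, FSH and FBS over untreated, with its SE (horizontal axis), of the 29 tested genes of the matrix list, 1 row per gene, colored by call. Of these, 3 were called higher and 3 lower, at the ends Col18a1 with 3.30 and Smoc2 with -3.60; the members of the set are not shown because they could not be tested.

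Stromal and theca markers were read beside the matrix genes, since fibroblasts and theca cells also make collagens and decorin. In bulk RNA, fewer cells of a type and less RNA per cell cannot be told apart. The summed level of the 16 listed theca and stroma markers was 36.6, 35.6 and 43.3 FPKM with FSH and FBS, against 95.7, 93.3 and 68.8 FPKM in the untreated libraries. Most of that gap was the smooth muscle actin gene Acta2, which had 13.6, 14.5 and 17.5 FPKM with FSH and FBS, against 66.6, 67.7 and 58.3 FPKM untreated. A further part was fixed by the rule, which keeps Dcn out of the FSH and FBS libraries. Dcn gave 7.86, 7.01 and 2.99 FPKM of the untreated sums. Other markers of the list ran both ways. Pdgfrb, a receptor gene of mural and stromal cells, was listed at 0.799 FPKM in FSH and FBS library 3 alone of its group, against 2.77 and 2.81 FPKM in untreated libraries 1 and 2 and no listing in 3. Aspn and Ogn, relatives of Dcn, were listed in untreated libraries 1 and 2 alone, at 0.059 to 1.18 FPKM. Mfap5, a microfibril gene, had 3.99, 2.76 and 2.73 FPKM with FSH and FBS and was listed in no untreated library. Cspg4, a pericyte gene, had 1.76, 1.76 and 4.91 FPKM with FSH and FBS, against 0.731, 1.05 and 0.508 FPKM untreated. Ptch1, a hedgehog receptor gene, had 8.95 to 10.3 FPKM with FSH and FBS, against 2.34 to 7.52 FPKM untreated. The list thus did not move as a whole. The fibroblast collagen genes Col1a1, Col1a2 and Col3a1 were at 0.679 FPKM or lower, or not listed, in all 6 libraries. The theca enzyme gene Cyp17a1 was listed at 0.032 FPKM in untreated library 1 and in no other. Of this list Dcn is among the 147, and the other markers' part in its listing was not tested.

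Channel, transporter, receptor and signaling genes, given by hand as 1 role, formed the largest group with a known role, with 20 genes. Slc24a4, which encodes a sodium, potassium and calcium exchanger, had 9.90, 11.8 and 5.10 FPKM in untreated libraries 1, 2 and 3. Grik3, which encodes a kainate-type glutamate receptor subunit, had 7.55, 7.63 and 1.88 FPKM. Sorcs1, which encodes a sorting receptor, had 5.61, 5.46 and 1.71 FPKM. In these 3 genes library 3 was the lowest, and for Grik3 and Sorcs1 it was far below the others. Plch1, which encodes a calcium-sensitive phospholipase C, had 5.01, 4.92 and 1.45 FPKM. Dgkb, which encodes a diacylglycerol kinase, had 2.55, 3.63 and 1.77 FPKM. Phospholipase C makes the diacylglycerol that this kinase removes, and both genes were of the same order of level. P2ry14, which encodes a receptor for UDP-sugars, had 2.29, 1.55 and 1.99 FPKM. The sodium channel gene Scn3a had 1.05, 1.12 and 1.47 FPKM and was highest in library 3. The calcium release channel gene Ryr2 had 1.29, 0.617 and 0.632 FPKM.

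Of related genes, solute carriers could mostly be tested, 149 of 234 listed, while 7 of 37 potassium channel genes, 17 of 38 calcium, sodium and chloride channel genes and 4 of 23 neurotransmitter receptor genes could. Of 149 other solute carrier genes, 8 were called higher and 0 lower by limma, or 36 and 6 with the block, with a median of 0.45 (log2). An unadjusted p under 0.05 was reached by 39 of them, against 1485 of all 9022 tested genes. Of 7 other potassium channel genes and 17 other calcium, sodium and chloride channel genes, 0 were called by limma in either direction, with 4 and 1 at an unadjusted p under 0.05; with the block 3 of the potassium channel genes were called higher and 2 lower, and 1 of the others higher. Of 4 other neurotransmitter receptor genes 0 were called by limma, with 1 at an unadjusted p under 0.05 and 1 called higher with the block. Kcnk2 is 1 of 12 potassium channel genes that were listed in all 3 untreated libraries.

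Growth control and transcription held 10 genes. Cdkn1c, an imprinted gene for an inhibitor of cyclin-dependent kinases, had 11.4, 9.55 and 6.89 FPKM in untreated libraries 1, 2 and 3. Nr0b1, which encodes DAX1, a repressor of the steroidogenic factor Nr5a1, had 2.70, 3.72 and 2.04 FPKM. Npas4, an activity-dependent transcription factor gene, had 5.29, 3.23 and 1.66 FPKM. Of these, Cdkn1c was the highest and all 3 were lowest in library 3. Nr5a1 itself, listed in every library, had 27.9, 29.7 and 38.5 FPKM with FSH and FBS, against 28.5, 27.9 and 25.6 FPKM in untreated libraries. Its 2 groups overlapped. Bach2, Tbx2, Klf12, Trp63, Tox, Tox3 and Hopx were all under 1 FPKM in level. Phactr1, which encodes a regulator of actin and of protein phosphatase 1, had 11.5, 12.6 and 3.59 FPKM and was the highest of 8 genes of muscle or the cytoskeleton.

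Cdkn1c is a known target of FOXO factors, which are held inactive by PI3K signaling, and Pik3cg encodes a PI3K catalytic subunit. Pik3cg had 0.325, 0.621 and 0.720 FPKM in untreated libraries 1, 2 and 3. Of 24 other genes tested on the PI3K and FOXO list, 4 were called lower and 0 higher with FSH and FBS, or 7 and 2 with the block, with a median of -0.15 (log2), beside 0.24 for all genes. Ddit4l, which encodes an inhibitor of mTOR signaling, had 1.44 ± 0.011 FPKM with FSH and FBS and 62.8 ± 6.70 FPKM in untreated cells (SD, n = 2 each, limma adjusted p = 0.0029). Pik3ip1, which encodes an inhibitor of PI3K, had 0.864 ± 0.92 FPKM with FSH and FBS and 33.6 ± 2.21 FPKM in untreated cells (limma adjusted p = 0.0053). Pik3cd, which encodes another catalytic subunit, had 1.56 ± 0.54 FPKM with FSH and FBS and 10.8 ± 2.01 FPKM in untreated cells (limma adjusted p = 0.027). Txnip, a glucose-responsive gene for an inhibitor of thioredoxin, was the fourth, with an adjusted p of 0.042 by limma. The call for Pik3cd was lost in 5 alternative settings, untreated library 3 left out among them (adjusted p = 0.074), and that for Txnip in 8, untreated library 2 (0.051) and 3 (0.096) left out among them. Wherever library 3 of a group is left out, here and below, that group is 1 sample, assumed to vary like the other group, which alone gives the spread. Both kept a log2 change of -1.89 or lower in those settings. In the list of cell cycle genes, which holds Cdkn1c, 0 of 34 other genes were called by limma, with 4 at an unadjusted p under 0.05 and 1 called in each direction with the block.

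Tnfsf10, which encodes the death ligand TRAIL, had 4.90, 5.07 and 1.94 FPKM in untreated libraries 1, 2 and 3. Its receptor gene in mouse, Tnfrsf10b, was listed in all 6 libraries, with 8.71, 11.8 and 6.33 FPKM with FSH and FBS, against 5.401, 10.6 and 2.51 FPKM untreated. The groups of the receptor gene overlapped, although each FSH and FBS library lay above the untreated library of the same number, and it was not called (limma adjusted p = 0.55). Of 36 other genes tested on the apoptosis list, 0 were called by limma, with 7 at an unadjusted p under 0.05 and a median of 0.017 (log2); with the block 1 was called higher and 4 lower. The pro-apoptotic gene Bmf had 1.27 ± 1.43 FPKM with FSH and FBS and 7.82 ± 5.0 FPKM in untreated cells (SD, n = 2 each), and passed with the block (limma adjusted p = 0.15, and 0.00043 with the block). For the death receptor gene Fas the values were 2.02 ± 1.57 and 5.71 ± 0.51 FPKM with FSH and FBS and in untreated cells (limma adjusted p = 0.24, 0.016 with the block and 0.039 without FSH and FBS library 3, which leaves that group 1 sample).

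Chemokine, interferon-response and leukocyte genes made up 10 of the 147, at levels of 0.411 to 1.39 FPKM. Ccl3, which encodes a macrophage-attracting chemokine, had 1.499, 1.26 and 1.41 FPKM in untreated libraries 1, 2 and 3. Its neighbor Ccl4, 13.2 kb away on chromosome 11, had 0.620, 0.712 and 1.33 FPKM. Cxcl9, an interferon-gamma-induced chemokine gene, had 0.056, 0.044 and 0.772 FPKM, so its level rests on library 3. Ifi27l2a, an interferon-induced gene, had 0.727, 0.412 and 1.88 FPKM and was likewise highest there. Gbp5, which encodes an interferon-induced GTPase, had 0.271, 0.771 and 0.919 FPKM. Ifit1, which encodes an interferon-induced RNA-binding protein, had 0.521, 0.537 and 0.463 FPKM, with little difference between libraries. Oas1b, an interferon-induced gene that RefSeq classes as a transcribed pseudogene, had 0.390, 0.903 and 0.790 FPKM. The other 3 are best known from leukocytes and are not interferon or chemokine genes: Clec4n encodes a myeloid lectin, Rac2 a GTPase of blood cells and Batf3 a transcription factor of dendritic cells. Clec4n had 0.818, 1.26 and 0.854 FPKM. Rac2 had 0.173, 0.283 and 0.613 FPKM, and Batf3 had 0.177, 0.524 and 0.890 FPKM, both highest in library 3. Of the 10 genes, 5 are on the inflammatory or interferon lists, namely Ccl3, Ccl4, Cxcl9, Ifit1 and Gbp5. Of the 10 genes, 8 were higher in library 3 than in the mean of libraries 1 and 2, with a median difference of 0.91 (log2), and their sum was 5.25, 6.70 and 9.92 FPKM in untreated libraries 1, 2 and 3.

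Of 35 tested genes of the interleukin, chemokine and TNF family, 1 was called higher and 2 lower, or 5 and 8 with the block. Without the block, the called chemokine genes were Cxcl10, which was lower, and Ccl17, which was higher. Cxcl10, which like Cxcl9 encodes a ligand of Cxcr3, had 0.412 ± 0.30 FPKM with FSH and FBS and 10.4 ± 2.62 FPKM in untreated cells (SD, n = 2 each). Its log2 change was -3.01 ± 0.40 (SE, limma adjusted p = 0.0100), and the call was lost only with the minimum mean raised to 5 FPKM (adjusted p = 0.061). Ccl17, which encodes a ligand of Ccr4, had 28.3 ± 4.32 FPKM with FSH and FBS and 5.46 ± 2.40 FPKM in untreated cells (limma adjusted p = 0.030). Its call was lost in 6 settings, among them all 3 rescalings (adjusted p = 0.085 to 0.11) and without untreated library 1 (adjusted p = 0.072). Il1a, which encodes interleukin-1 alpha, had 0.972 ± 0.69 FPKM with FSH and FBS and 16.8 ± 12.2 FPKM in untreated cells (limma adjusted p = 0.033); its call was lost in 5 settings. In all, 2 of 24 tested genes of the inflammatory list were called lower and 1 higher, the prostaglandin synthase gene Ptgs2, whose call was lost in 6 settings, untreated library 3 left out among them (adjusted p = 0.2 with that group at 1 sample). The median was -0.30 (log2), and with the block 9 were called lower and 3 higher. On the interferon list 0 of 19 tested genes were called by limma, with 4 at an unadjusted p under 0.05 and a median of -0.16 (log2); with the block 2 were called higher and 1 lower.

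Leukocyte markers were at low level in both groups. Without Cd79a, a B cell gene listed at 198.7 to 459.7 FPKM in 5 libraries and not listed in untreated library 2, the sum of 11 leukocyte markers was 4.47, 3.50 and 7.98 FPKM with FSH and FBS, against 11.96, 9.33 and 14.2 FPKM in the untreated libraries. The pan-leukocyte gene Ptprc was listed at 0.0050 FPKM in FSH and FBS library 1 and in no other library. Lyz2, which macrophages and neutrophils express, had 2.26, 1.84 and 3.76 FPKM with FSH and FBS, against 5.98, 5.53 and 7.55 FPKM untreated. Without Cd79a the sums did not overlap between the groups and were highest in library 3 of each. With Cd79a, left out after the data were seen, the groups overlapped. Those sums were 203.1, 203.7 and 340.5 FPKM with FSH and FBS, against 455.2, 9.33 and 473.9 FPKM untreated. Single markers ran both ways. Lyz2, Tyrobp and Fcer1g were lower in every FSH and FBS library than in any untreated one. The share of all genes split in that way was not computed. Cd68 had 0.184, 0.189 and 1.63 FPKM with FSH and FBS and 0.229 FPKM in untreated library 1 alone. Aif1 and Itgax were listed with FSH and FBS only. The part of these markers in the listing of the 10 genes was not tested.

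The oocyte role was given by hand to 6 of the 147 genes. All 6 were higher in untreated library 3 than in the mean of libraries 1 and 2. No role was given to 62 of the 147 genes, so other oocyte genes may be among them. Zp3, which encodes a glycoprotein of the zona pellucida, had 1.76, 1.38 and 1.75 FPKM in untreated libraries 1, 2 and 3. Nlrp14, which encodes an oocyte protein of the NLR family, had 1.09, 0.786 and 2.47 FPKM. Padi6, which encodes a component of the oocyte's cytoplasmic lattices, had 0.888, 1.46 and 1.68 FPKM. Eif4e1b, which encodes an oocyte cap-binding protein, and the clustered genes Tcl1b2 and Tcl1b4 completed the group, which summed to 5.87, 5.75 and 9.97 FPKM. All 6 thus lay at 0.472 to 2.47 FPKM.

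Oocyte markers outside the 147 split the FSH and FBS libraries. Of 27 oocyte markers listed in at least 1 library, 3 belong to the 147 and are left out here, which leaves 24. Of these 24, FSH and FBS libraries 1, 2 and 3 listed 3, 3 and 15. Untreated libraries 1, 2 and 3 listed 22, 19 and 17. The sum of the 24 markers was 8.09, 7.75 and 45.3 FPKM with FSH and FBS, against 43.2, 47.1 and 47.7 FPKM untreated. FSH and FBS library 3 thus lay within the untreated range on the sum, while libraries 1 and 2 lay far below it. Libraries 1 and 2 listed only Gdf9, Tle6 and Kit, and their Tle6 and Kit values were above every untreated one. Tle6 had 5.56, 4.62 and 7.42 FPKM with FSH and FBS, against 1.49, 2.17 and 4.24 FPKM untreated. Kit had 2.27 and 2.97 FPKM in FSH and FBS libraries 1 and 2 and no listing in 3. Untreated, Kit had 1.17, 1.72 and 0.600 FPKM. Gdf9, the gene of an oocyte growth factor that acts on cumulus cells, had 0.260, 0.157 and 8.77 FPKM with FSH and FBS, against 4.16, 5.10 and 6.06 FPKM untreated. H1foo, the oocyte linker histone gene, was listed in FSH and FBS library 3 alone of its group, at 5.62 FPKM, against 6.44, 7.64 and 7.75 FPKM untreated, and so lay just outside the rule. Of the list 2 markers could be tested, Gdf9 and Tle6, and 0 were called by limma (0 at an unadjusted p under 0.05). Without FSH and FBS library 3, Gdf9 had a log2 change of -2.38 (limma adjusted p = 0.0032), in a fit where that group is 1 sample and the untreated group alone gives the spread. With the block Tle6 was called higher (adjusted p = 0.047). Zp3, Nlrp14 and Padi6 were not listed in FSH and FBS library 3, which listed 13 oocyte markers that libraries 1 and 2 of its group lacked. The part of oocyte RNA in their listing was not tested.

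**Figure D4:**
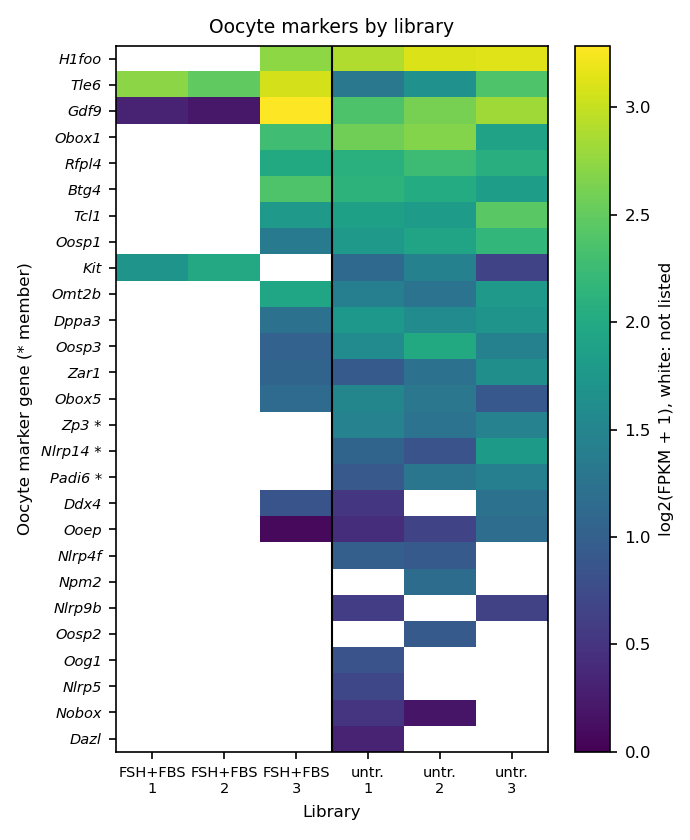
Level of 27 oocyte markers (rows, log2(FPKM + 1) by color, white where not listed) in the FSH and FBS libraries (left) and the untreated libraries (right); a star marks a gene among the 147. FSH and FBS libraries 1 and 2 list 3 markers each and library 3 lists 15, against 20 to 25 in the untreated libraries. Without the 3 starred genes, whose listing the rule fixed, the untreated libraries list 17 to 22.

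Imprinted and noncoding genes stood among the rest. Beside Cdkn1c, the imprinted gene Mest had 0.841, 1.13 and 1.07 FPKM in untreated libraries 1, 2 and 3. An identifier named for the microRNA gene Mir675 had 2.10, 1.60 and 0.467 FPKM. Its listed last exons were 586 and 235 bases long, against 84 bases for the RefSeq hairpin, and lay in H19, the imprinted noncoding gene that hosts the microRNA and that has 0 listed events of its own. The value therefore says nothing of the microRNA. Of the 147 genes, 13, or 8.84%, were classed as long noncoding RNA genes in RefSeq, against 1.44% of the 10031 genes listed in the untreated libraries, and 125, or 85.03%, as protein coding, against 95.0%. Predicted gene symbols numbered 20, and 6 identifiers had no match. Gm7367, with 1.04, 12.2 and 2.92 FPKM, was the highest of the predicted symbols and differed by more than 2-fold between libraries 1 and 2.

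Overlap with another listed gene touched 13 of the 147, 10 on the opposite strand and 3 on the same strand. Wt1os, antisense to Wt1, had 1.18, 1.66 and 1.18 FPKM in untreated libraries 1, 2 and 3. Wt1, which encodes a transcription factor of granulosa cells, had 0.419, 0.145 and 0.0063 FPKM with FSH and FBS, against 8.04, 9.03 and 3.73 FPKM untreated, so at this locus only untreated libraries held values above 1 FPKM on either strand. Rarres2 overlaps Lrrc61 on the opposite strand, and Lrrc61 was listed at 3.48 to 3.92 FPKM with FSH and FBS, against 1.999 to 2.76 FPKM untreated. Lrrc61 thus did not follow Rarres2. Whether counting used strand is not given in the sources used here, so reads of overlapping partners cannot be told apart. Within 250 kb of another of the 147 lay 15 genes in 8 pairs. They include Ccl3 with Ccl4, Oas1e with Oas1b on chromosome 5, Tcl1b2 with Tcl1b4 on chromosome 12, and Fbxw21, Fbxw16 and Fbxw15 on chromosome 9. Pcdh10, a protocadherin gene, and 2610316D01Rik start 0.146 kb apart on opposite strands of chromosome 3. Members of these families resemble one another, and how reads were shared between them is not known.

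The untreated libraries differed among themselves in which of the 147 genes were high. Library 3 exceeded the mean of libraries 1 and 2 for 77 genes, or 52.4%, against 35.1% of all 10031 genes, with a median log2 ratio of 0.05 against -0.23. More than 2-fold above lay 24 genes and more than 2-fold below lay 31. These shares and the medians by role were not matched by level. Genes under 0.5 FPKM numbered 825, 840 and 400 in untreated libraries 1, 2 and 3. What that does to the ratios of low genes was not tested. By role, the medians fell on both sides of 0. Of 9 matrix genes 1 was higher in library 3, and their sum was 49.0, 47.9 and 27.5 FPKM in untreated libraries 1, 2 and 3. The median log2 ratio was -0.92 for matrix genes, -1.21 for 4 enzymes of the surface and matrix and -0.25 for 11 secreted proteins. It was -0.45 for 7 adhesion genes, -0.41 for 8 genes of muscle or the cytoskeleton and -0.43 for 10 of transcription and growth control. The 20 channel, receptor and signaling genes were split, with 11 higher in library 3 and a median of 0.14. The median was 0.81 for the 6 oocyte genes and 0.91 for the 10 chemokine, interferon and leukocyte genes. The roles were given by hand after the genes were known, so these medians are a description. Libraries 1 and 2, which agree for most genes, differed by more than 2-fold for 36 of the 147 genes, but for 2 of the 36 genes at or above 2 FPKM. Over the 9237 genes listed in all 6 libraries, 5.17% differed by more than 2-fold. The median difference without sign was 0.50 (log2) over the 147 genes, against 0.16 for all genes. At or above 2 FPKM it was 0.19 over the 36 genes, against 0.14 for all genes of that level.

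**Figure D5:**
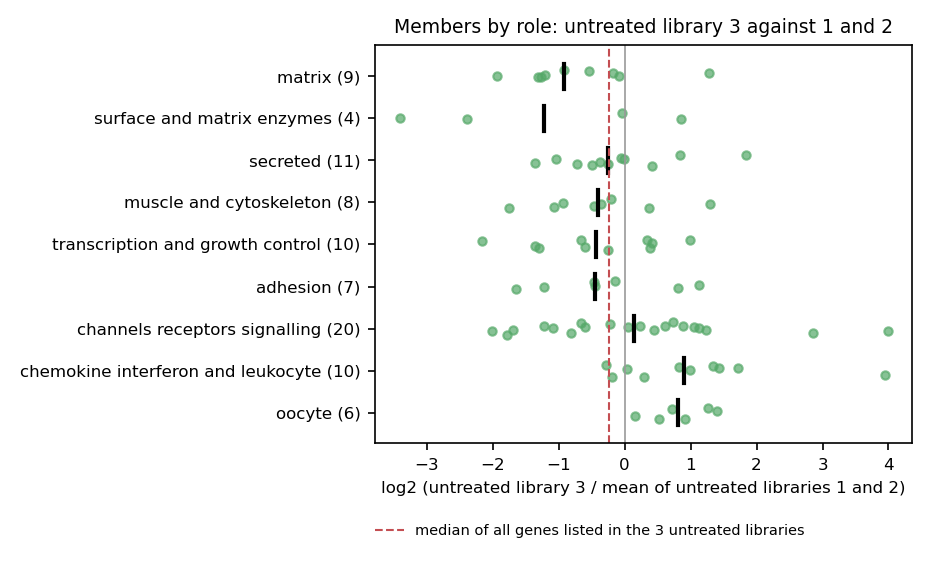
Log2 ratio of untreated library 3 to the mean of untreated libraries 1 and 2 (horizontal axis) for members with an assigned role, 1 point per gene, with the number of genes in brackets and a black bar at the median. Matrix genes lie mostly below 0 with a median of -0.92. The 6 genes given the oocyte role all lie above 0 with a median of 0.81. The dashed line is the median of all genes listed in the untreated libraries, -0.23.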

How the data were processed

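RNA libraries from cumulus cells, 3 given FSH and FBS and 3 untreated, were analysed; the small-RNA libraries were not analysed here. Each deposited table lists, per the file headers, transcript events with a position and an FPKM value that the authors computed. Per the submitters' processing notes, HISAT2 2.0.1 was used. Which assembler, filters, strand setting and genome build the authors used is not given in the sources used here. Depth is unknown, so no counting interval is given.

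A gene's value in a library is the larger of its summed first-exon (TSS) and last-exon (TTS) FPKM on the strand with most signal. The rule was met by 150 genes, of which 3 are not reported here. The genes and the gene lists were chosen with earlier results of these data known, and roles were given by hand after the genes were seen. Genes named with values are the 25 highest with a gene name, members of the lists, and up to 4 tested genes per list with at least 2 members; others were chosen after their values were seen.

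limma 3.58.1 in R 4.3.3 was fitted to log2(FPKM + 1), with an intensity trend, for genes present in all 6 tables and averaging 1 FPKM or more. Tests were two-sided, and calls were made at a Benjamini-Hochberg adjusted p under 0.05. Fold changes on this scale understate those of low genes. Libraries 1 and 2 of a group were averaged first. Deviations from group means of same-numbered libraries correlated across 9022 genes (r = 0.32, 0.31 and 0.51 for numbers 1, 2 and 3), so numbers were treated as paired in a fit with the sample number as a block. As libraries 1 and 2 of a group are close, these values largely restate library 3 against the mean of 1 and 2 (r = 0.51). The labels do not say what a number marks. The fit was checked on simulated data. Sequences were matched by gene symbol in the RefSeq table of GRCm38.p6. Medians and shares use the first entry of each symbol. The printed sequences are the entries nearest the gene's highest first exon in the untreated libraries. Alternatives were other event types, listing minimums of 0.5 and 1 FPKM, pseudocounts of 0.1 and 5 FPKM, a minimum mean of 5 FPKM or none, unlisted genes as 0, 3 rescalings, all 6 libraries as separate replicates, the block, and each library left out. The set without 13 genes that overlap another listed gene, and the leukocyte sum without Cd79a, were added after seeing the data.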

Additional observations from a re-analysis of the deposited data

How the results depend on the processing

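The number of genes listed in untreated libraries alone was 147. It was 129 to 157 with TSS or TTS sums alone, either strand, any event kind, or values under 0.5 or 1 FPKM treated as unlisted. The genes themselves turned over more: with values under 1 FPKM unlisted, 43 of 157 were shared with the 147, and with values under 0.5 FPKM 91 of 152. Leaving out 1 library gave 183 to 290 genes, the most without untreated library 3; with fewer libraries the rule is easier to meet. Without the 13 overlapping genes 134 remained. The median level of 0.98 FPKM was 1.10 FPKM after scaling by the median of ratios, and 0.906 to 1.02 FPKM with 1 library left out. The counts of other genes called by limma, 152 higher and 62 lower with FSH and FBS, moved more. They were 973 and 350 with all 6 libraries as separate replicates, 1040 and 407 with the replicate block, and 1516 and 584 with both. They were 50 and 41 after scaling by the median of ratios and 42 and 21 with TSS sums alone. Equal sums gave 59 higher. With 1 library left out they were 60 to 272 higher and 41 to 112 lower, the fewest without untreated library 3 and the most without FSH and FBS library 3; in both fits 1 group is a single averaged sample, assumed to vary like the other group, which alone gives the spread. The cause of these moves was not tested. No log2 fold change of a gene named by the rule changed sign in any setting run; 902 values kept their call, 86 gained one and 94 lost one. The main limits are the unknown depth, the lack of values for unlisted genes, n = 2 per group, and low levels: with 51.7% of the genes under 1 FPKM, listing alone cannot tell a silent gene from one just under the limit of the tables.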
